A study of Mus musculus with 8 samples.

Results

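The homeostatic microglia genes described here are P2ry12, P2ry13, Gpr34, Cx3cr1, Tmem119, Fcrls, Siglech, Olfml3 and Sall1. They were chosen by name, as every non-control probe that the array design assigns to 1 of these 9 symbols, and the 9 were among 25884 genes kept for testing. The study hybridised RNA from C57Bl/6J mice to 8 single-colour expression arrays, 1 array for each of 2 genotypes in 4 conditions. The genotypes were wild type (WT), titled FL or F/F, and Cx47 deficient, titled icKO and described by the submitters as a conditional knockout restricted to oligodendroglia. The conditions were naive, experimental autoimmune encephalomyelitis (EAE, an immune-mediated mouse model of multiple sclerosis), EAE with iguratimod (an anti-inflammatory drug used in rheumatoid arthritis), and chronic EAE, whose titles carry the mark p50, left unexplained. The labels give the tissue as spinal cord and the source as astrocytes, and neither the Cre driver, the ages of the mice, the dose of drug nor the way the cells were isolated was given in the sources used here. Nothing says that the arrays carried RNA of separate animals, so the p-values below measure only the spread between these arrays, which may be technical. With 1 array per group, that spread is what a fit of condition plus genotype leaves over. A response that differs between the genotypes is therefore counted as spread and cannot be tested here.

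Microglia are the resident macrophages of the brain and spinal cord. In undisturbed tissue they express a set of surface receptors and transcription factors that other macrophages largely lack, and this set is commonly used to tell resident microglia from blood-derived cells. The set depends on transforming growth factor beta and colony-stimulating factor 1 receptor signalling, and in inflamed or demyelinated tissue microglia are known to lower many of these genes while they raise phagocytic and lipid-handling genes.

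All 9 genes were well above background on all 8 arrays through at least 1 probe, although the source was labelled as astrocytes. The 27 other microglia-enriched genes listed for comparison were likewise detected, with 26 or 27 of them well above background on each array, and so were the 13 astrocyte, 10 oligodendrocyte and 10 neuron markers, so the RNA held transcripts of several cell types. In such a mixture fewer microglia and less RNA per microglial cell cannot be told apart. The 2 chronic arrays were on a slide of their own, with 71.3% to 72.0% of spots well above background against 59.7% to 65.8% on the other 6, and a spike-in slope of 0.76 against 0.92 to 1.07. Chronic EAE and slide cannot be told apart.

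Every level below is the log2 processed signal of a probe minus the 75th percentile of its array, so that 0 is the level that 75% of the spots on that array did not exceed. Levels of different probes are not comparable, and differences are given only for the same probe between arrays. The genes were covered by 16 probes, of which 15 were well above background on all 8 arrays. The exception was the second Fcrls probe, which stayed under that mark on every array. Where a gene had several probes the brightest represents it in the fits. Differences between conditions are the fitted log2 difference over both genotypes with its standard error (SE), from limma across all genes with Benjamini-Hochberg adjustment, and a gene was called when its adjusted p was under 0.05.

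**Figure D1:**
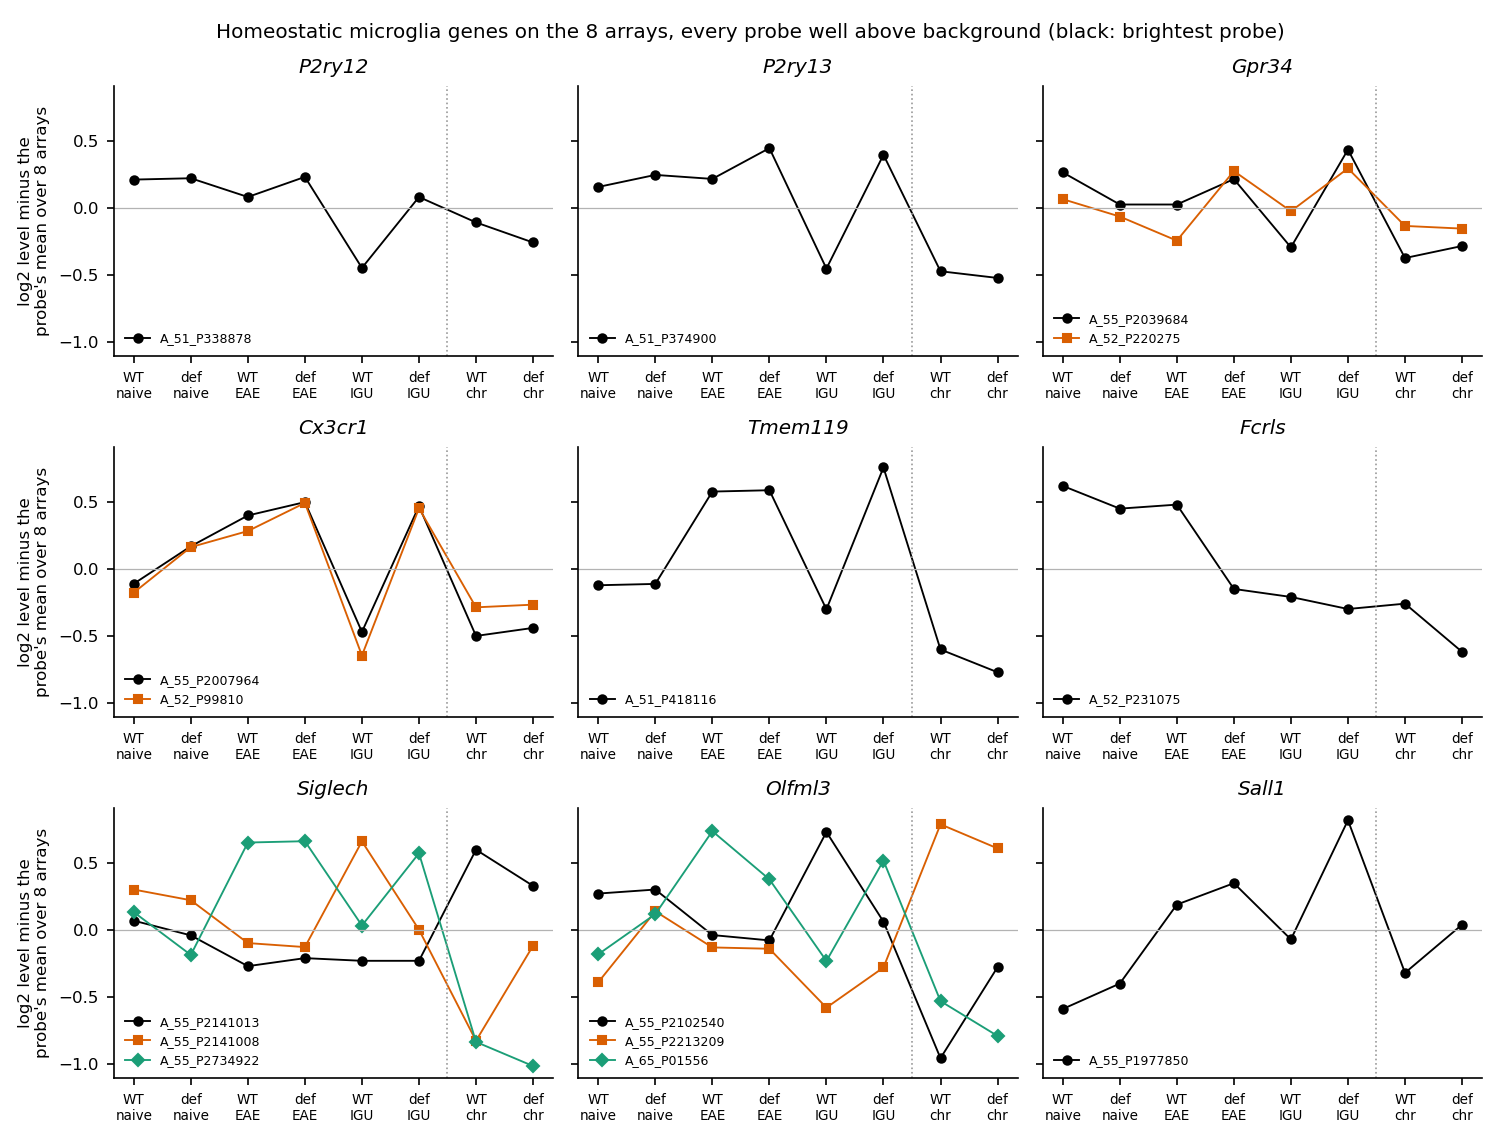
Log2 level of each probe minus that probe's own mean over the 8 arrays, for the 9 genes. Each point is 1 array (WT, wild type; def, Cx47 deficient; IGU, iguratimod; chr, chronic), black circles are the brightest probe of the gene, orange squares and green diamonds its other probes, and the dotted line separates the slides. The brightest probes of P2ry12, P2ry13, Gpr34, Cx3cr1 and Tmem119 share a dip on the WT iguratimod array, which the dimmer Gpr34 probe does not show, and low values on both chronic arrays, and the probes of Siglech and of Olfml3 run in different directions.

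The purinergic receptors P2ry12 and P2ry13 bind adenosine diphosphate, and P2ry12 guides microglial processes towards injured cells. P2ry12 (mm9 chr3:59020598-59020657, minus strand) was at 0.57 on the WT naive and 0.58 on the Cx47-deficient naive array. It was at 0.44 and 0.59 in EAE, at -0.09 and 0.44 with iguratimod, and at 0.25 and 0.10 in chronic EAE, in the same order of genotypes. The WT iguratimod array was the lowest, and both chronic arrays were below all arrays but that 1. The naive and EAE arrays overlapped.

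P2ry13 (chr3:59012054-59012113, minus strand), the neighbour of P2ry12, was at -0.63 and -0.54 in the naive arrays and at -0.57 and -0.34 in EAE. With iguratimod it was at -1.24 in WT and -0.39 in the Cx47-deficient array, and in chronic EAE at -1.26 and -1.31. The WT iguratimod array and both chronic arrays thus stood apart from the other 5, which lay between -0.63 and -0.34. P2ry12 and P2ry13 correlated at r = 0.87 over the 8 arrays and r = 0.90 over the 6 arrays of slide 1. These and the other correlations below are descriptions over 8 arrays that share their labelling and, within a slide, their scan.

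Because these neighbouring receptors moved together, the 250 bases before the start of each are shown, from RefSeq on GRCm38, both on the minus strand of chromosome 3, for P2ry12 at chr3:59262986-59263235 and for P2ry13 at chr3:59210883-59211132. The capitals mark AGGAAG, the core that ETS factors such as PU.1, a main regulator of myeloid genes, can bind, on either strand.
P2ry12: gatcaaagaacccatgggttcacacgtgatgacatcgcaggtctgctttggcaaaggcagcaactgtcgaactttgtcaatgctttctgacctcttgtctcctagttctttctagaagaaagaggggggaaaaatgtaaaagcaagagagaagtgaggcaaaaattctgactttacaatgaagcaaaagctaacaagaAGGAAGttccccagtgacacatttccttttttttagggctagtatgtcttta
P2ry13: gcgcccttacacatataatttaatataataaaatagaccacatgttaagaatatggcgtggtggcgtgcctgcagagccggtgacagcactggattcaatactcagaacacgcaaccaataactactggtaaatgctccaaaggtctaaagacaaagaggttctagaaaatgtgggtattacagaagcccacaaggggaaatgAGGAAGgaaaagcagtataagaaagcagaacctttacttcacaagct
Each held AGGAAG 1 time. The RefSeq table had an entry for 7 of the 9 genes, 9 windows in all because Sall1 had several, and 5 of the 9 windows held AGGAAG on either strand. Of all 32851 windows of the same length, 29.5% did. A match describes the letters and is not a bound site.

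Gpr34, a receptor for lysophosphatidylserine, was measured by 2 probes that correlated at r = 0.72. The brighter (chrX:13217863-13217922, plus strand) was at -0.08 and -0.32 in the WT and Cx47-deficient naive arrays, at -0.32 and -0.13 in EAE, at -0.64 and 0.09 with iguratimod and at -0.72 and -0.63 in chronic EAE. Both chronic arrays were below the naive and EAE arrays, which overlapped each other. The dimmer probe varied by 0.55 in all, from -2.48 to -1.94.

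Cx3cr1 is the receptor for fractalkine (Cx3cl1), a neuronal ligand that restrains microglia, and monocytes also express it. Its brighter probe (chr9:119957811-119957870, minus strand) was at 2.79 and 3.07 in the naive arrays, 3.30 and 3.40 in EAE, 2.43 and 3.37 with iguratimod, and 2.40 and 2.46 in chronic EAE. Both EAE arrays were above both naive arrays, and the WT iguratimod array lay with the chronic arrays. The second Cx3cr1 probe, 1267 bases across from the outer end of the first to its own, followed the same course (r = 0.95), at -0.10 and 0.24, 0.36 and 0.57, -0.57 and 0.53, and -0.21 and -0.19 in that order of conditions.

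Tmem119 encodes a transmembrane protein widely used as a marker of resident microglia. Its probe (chr5:114243962-114244021, minus strand) was at 0.87 and 0.88 in the naive arrays, 1.57 and 1.58 in EAE, 0.69 and 1.75 with iguratimod and 0.39 and 0.22 in chronic EAE. It had the widest range of the genes with 1 probe, 1.53. The genotypes were 0.01 apart in the naive arrays, 0.02 apart in EAE and 1.06 apart with iguratimod.

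The brightest probes of P2ry12, P2ry13, Gpr34, Cx3cr1 and Tmem119 are grouped here by their courses on these arrays, so their correlations do not test the group. Its limits also depend on the probe. Tmem119 correlated at r = 0.58 with P2ry12, but at 0.94 with 1 dimmer Siglech probe and 0.96 with 1 dimmer Olfml3 probe, both described below. The 10 pairwise correlations within the group lay between 0.58 and 0.95 over 8 arrays and between 0.40 and 0.92 over the 6 arrays of slide 1. Of all 36 pairs among the 9 genes, 24 were above 0. The genes whose course was most like that of Tmem119, among 20356 candidates well above background on all arrays, were Tgfb1 (r = 0.99), the growth factor on which the set depends, Csf1r (r = 0.99), the survival receptor of microglia, and Apbb1ip (r = 0.98). P2ry13 was most like Slc29a3, a lysosomal nucleoside transporter (r = 0.99), and Selplg, a selectin ligand that is also enriched in microglia (r = 0.99). Selplg was also the gene most like the mean course of all 9 (r = 0.99), followed by Slc29a3, Zfp691, Mmp2 and Plod3 (r = 0.96 to 0.97). Cx3cr1 was most like Lpcat2 (r = 0.98), Gpr34 most like Dock10 (r = 0.98), and P2ry12 most like Arsa (r = 0.93).

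Fcrls, an Fc receptor-like protein whose transcript marks mouse microglia, took another course. Its measurable probe (chr3:87056422-87056481, minus strand) was at 0.13 and -0.04 in the WT and Cx47-deficient naive arrays, at -0.01 and -0.64 in EAE, at -0.70 and -0.79 with iguratimod and at -0.75 and -1.11 in chronic EAE. The naive arrays and the WT EAE array were high, and the other 5 were at -0.64 or below. Fcrls was the only 1 of the 9 that was lower on the Cx47-deficient array in all 4 conditions. Its nearest genes were Arfgap1 and Cdipt (r = 0.98 each).

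Sall1, a zinc finger transcription factor that maintains microglial identity, was lowest where Fcrls was highest. Its probe (chr8:91551278-91551337, minus strand) was at -1.99 and -1.80 in the naive arrays, -1.21 and -1.05 in EAE, -1.47 and -0.58 with iguratimod and -1.72 and -1.36 in chronic EAE. All 6 arrays of the diseased conditions were above both naive arrays. Sall1 and Fcrls correlated at r = -0.48. The genes most like Sall1 were Lgr6 (r = 0.99), Myo16 (r = 0.98) and Mx2 (r = 0.97).

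Siglech, a sialic acid-binding lectin of microglia and plasmacytoid dendritic cells, had 3 probes that disagreed. The brightest (A_55_P2141013, chr7:63034088-63034147, plus strand) was at 5.74 and 5.63 in the naive arrays, 5.40 and 5.46 in EAE, 5.44 and 5.44 with iguratimod, and 6.27 and 6.00 in chronic EAE, so that its chronic arrays were the highest. The second (A_55_P2141008, chr7:63028608-63028667) was at 3.22 and 3.14, 2.82 and 2.79, 3.58 and 2.92, and 2.09 and 2.80 in the same order. The third (A_55_P2734922), whose 60 bases map across 225 bases of the genome (chr7:63024045-63024269) and so are split, as a probe over a splice junction is, was at -2.00 and -2.32, -1.48 and -1.47, -2.10 and -1.56, and -2.97 and -3.15. Its chronic arrays were the lowest. The third probe correlated at r = -0.89 with the brightest, r = 0.35 with the second and r = 0.94 with Tmem119 (r = 0.91 on slide 1).

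Olfml3 encodes a secreted olfactomedin-like protein made by microglia, and its 3 probes disagreed as well. The brightest (A_55_P2102540, chr3:103540414-103540473, minus strand) was at 2.95 and 2.98 in the naive arrays, 2.64 and 2.60 in EAE, 3.41 and 2.74 with iguratimod, and 1.72 and 2.40 in chronic EAE. The second (A_65_P01556, chr3:103537878-103537937) was at -2.62 and -2.32, -1.70 and -2.06, -2.67 and -1.92, and -2.97 and -3.23, and followed Tmem119 (r = 0.96 over 8 arrays, r = 0.91 on slide 1). The third (A_55_P2213209, chr3:103535597-103535656) was at -3.93 and -3.40, -3.67 and -3.68, -4.12 and -3.82, and -2.75 and -2.93, with its chronic arrays the highest. The 3 lay within 4877 bases, whereas the Olfml3 gene spans 2608 bases in RefSeq (GRCm38.p6), and the outer probes correlated at r = -0.85 with each other.

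The brightest Olfml3 probe and the second Siglech probe, which lie on different chromosomes, had nearly the same course (r = 0.99 over 8 arrays and r = 0.99 on slide 1). The longest run of letters that these probes of 60 bases share is GTCTTCCC, which no other probe of the 9 genes holds. Shown are 30 bases of each around that run, in capitals, with the probes of Sox17, Vmn1r240 and Pkp3, the named genes nearest to the Olfml3 probe among those that hold it (r = 0.999, 0.997 and 0.996).
Olfml3: acacggcttttGTCTTCCCaaggctgcgtg
Siglech: gtgtgtgaacaGTCTTCCCtggtggattcc
Sox17: gcccgagatggGTCTTCCCtaccagggaca
Vmn1r240: attttaactgcaGTCTTCCCcagtatctct
Pkp3: gacagtgagaaGTCTTCCCgggcagcctcc
These genes are known for different roles. Sox17 is an endothelial transcription factor, Vmn1r240 belongs to the pheromone receptors of the vomeronasal organ, and Pkp3 is a desmosomal protein of epithelia. Vmn1r240 was at 2.80 and 2.82 in the naive arrays, 2.56 and 2.44 in EAE, 3.41 and 2.65 with iguratimod and 1.46 and 2.23 in chronic EAE, which ranks the 8 arrays as the Olfml3 probe does.

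The run was then looked up in every probe of the array, after its pattern had been seen. Apart from the probes of the 9 genes, 95 probes held GTCTTCCC and 92.6% of them were well above background on all 8 arrays, against 53.8% of probes without even its last 7 letters. Among the 88 detected, the median correlation with the Olfml3 probe was 0.95 and 57 (64.8%) exceeded 0.9. Among the 30234 detected probes without the 7 letters the median was 0.22 and 3.37% exceeded 0.9. The second Siglech probe gave a median of 0.96 and 64.8% over 0.9 for the same 88. Of the 20 probes nearest to the Olfml3 probe, 11 held GTCTTCCC, where 0.295% of all detected probes do. These figures describe letters and courses, and what the probes bound was not tested.

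**Figure D2:**
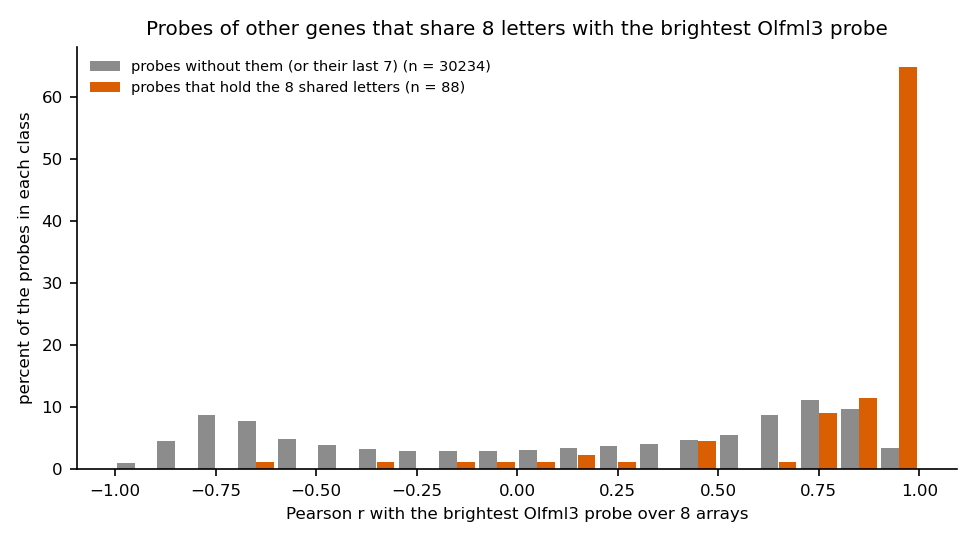
Distribution of the Pearson correlation with the brightest Olfml3 probe over the 8 arrays, in bins of width 0.1, as a percent of each class of probes of other genes well above background on all arrays. Orange bars are the 88 probes that hold the 8 letters shared by the Olfml3 and Siglech probes, of which 64.8% exceed 0.9, and grey bars the 30234 probes without the last 7 of them, of which 3.37% do.

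The brightest Siglech probe had other letters that recur. Its last 30 bases are shown, with 4 successive GAAA units in capitals.
Siglech: tctgtctcaaaGAAAGAAAGAAAGAAAgaa
The probes of 4 other rows of the array shared a run of 20 letters with it, and their correlations with it lay between 0.27 and 0.88 with a median of 0.83, where the median over all detected probes was -0.24. The 6 detected probes that are not the brightest of their gene shared no run of 20 letters with any other probe. The genes nearest to the brightest Siglech probe were Msh3 (r = 0.996), Srsf12 and Gm15879 (r = 0.99 each), and none of the microglial lists held them. The Siglech results below are given for the brightest probe, which the fits used, and for the third probe, and those of Olfml3 for the brightest and the second. These other probes were chosen after their values had been seen.

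In EAE the brightest probes of the 9 genes lay on both sides of naive. None of the 9 passed the limma test against naive (0.251% of all genes did), and 1 of 9 had an unadjusted p under 0.05 (7.17% of all genes). Their median difference was -0.02 (all genes, -0.06), with 4 above and 5 below 0. Sall1 differed by 0.77 (SE 0.24, 1.70-fold, limma adjusted p = 0.472), Tmem119 by 0.70 (SE 0.34, 1.63-fold) and Cx3cr1 by 0.42 (SE 0.27, 1.34-fold), and these 3 had both EAE arrays above both naive arrays (13.5% of all genes). At the other end were Fcrls at -0.37 (SE 0.20), Olfml3 at -0.35 (SE 0.33) and Siglech at -0.26 (SE 0.17), the last 2 of them with EAE arrays below naive arrays (16.7% of all genes). P2ry12 at -0.07 (SE 0.22), Gpr34 at -0.02 (SE 0.26) and P2ry13 at 0.13 (SE 0.26) were within their errors of 0. With the third Siglech probe (0.68) and the second Olfml3 probe (0.59) the median became 0.42, and 5 genes had EAE arrays above naive arrays without overlap.

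Genes that microglia share with other myeloid cells stood higher in the same comparison. The 27 other microglia-enriched genes had a median of 0.63 with 23 above 0, the 13 pan-myeloid genes 1.47 with 11 above 0, and the 21 genes raised in disease-associated microglia 1.08 with 19 above 0. The lowest pan-myeloid difference was Ptprc at -0.34. All 9 homeostatic genes were below the pan-myeloid median, a description for which no test between lists was run. Only 2 genes of these lists were called, both higher: Clec7a, a fungal glucan receptor, by 4.79 (SE 0.30, limma adjusted p = 0.0279), and Cd52, a small leukocyte glycoprotein, by 3.85 (SE 0.37, limma adjusted p = 0.0496). The complement gene C1qa, not called, was at 1.76 (SE 0.36) and the lysosomal protease Ctss at 1.90 (SE 0.28).

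Among the regulators of the set, 21 measured, 17 were above 0 in EAE and 0 were called by limma. Irf8, a transcription factor of the myeloid lineage, was at 2.13 (SE 0.34), Runx1 at 1.46 (SE 0.23) and Tgfb1 at 1.04 (SE 0.37). Spi1, which encodes PU.1, was not well above background on either naive array and was at least 1.99-fold higher in EAE (limma adjusted p = 0.75). Such a bound sets the dim group at no less than the lowest signal well above background on its arrays. Of the ligands and partners of the receptors 17 of 18 were measured, 15 of them above 0 and 0 called. Gpr171, a neighbour of P2ry12 and P2ry13 in the same receptor cluster, was not well above background on either naive array and was at least 4.33-fold higher in EAE (limma adjusted p = 0.0741). P2ry14 was at 2.06 (SE 0.30) and Entpd1, which degrades the ligands of the purinergic receptors, at 0.96 (SE 0.31).

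Several marker lists of other cell types also had medians above 0 in EAE on the same arrays, with few genes called. Others did not: the oligodendrocyte markers had a median of -0.66 with 9 of 10 below 0, and the neuron markers one of -0.07. The astrocyte markers had a median of 0.12. Of 14 monocyte and macrophage genes 12 were above 0 with a median of 2.67, and 1 was called, Plac8, which was not well above background on either naive array and was at least 54.3-fold higher in EAE (limma adjusted p = 0.035). The log2 of their summed signal was 4.37 to 4.61 in the naive, 5.84 to 6.83 in the EAE, 5.64 to 6.35 in the iguratimod and 5.31 to 5.42 in the chronic arrays. All 10 measured neutrophil genes were above 0 with a median of 2.44, S100a9 alone was called (3.28, SE 0.31, limma adjusted p = 0.0472), and their summed signal was 0.51 to 0.77, 3.11 to 3.75, 2.56 to 3.03 and 1.64 to 2.17 in that order. Of 10 T and NK cell genes 9 were above 0 with a median of 2.89, 0 were called, and 5 were well above background on the naive arrays. Cd3d and Cd2, not well above background on either naive array, were at least 18.0-fold and 13.6-fold higher in EAE, whereas Cd247 was at 0.01 (SE 0.21). The summed signal of this list, in which the brightest probes weigh most, was 4.78 to 4.98 in the naive and 4.75 to 4.79 in the EAE arrays. That sum does not show what the dimmer genes did. The plasmacytoid dendritic cell genes, of interest beside Siglech, had a median of 1.60, with 7 of 9 above 0 and 0 called. The 11 endothelial genes had a median of 2.36 with 11 above 0, and the 12 fibroblast and pericyte genes one of 1.04 with 12 above 0, with 0 called in either list. Their summed signals were 2.44 to 3.24 and 2.50 to 2.75 in the naive arrays, and 4.89 to 4.90 and 3.43 to 3.46 in EAE. The part of these cells in the levels of the 9 genes, of which Cx3cr1 and Siglech are known outside microglia, was not tested.

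**Figure D3:**
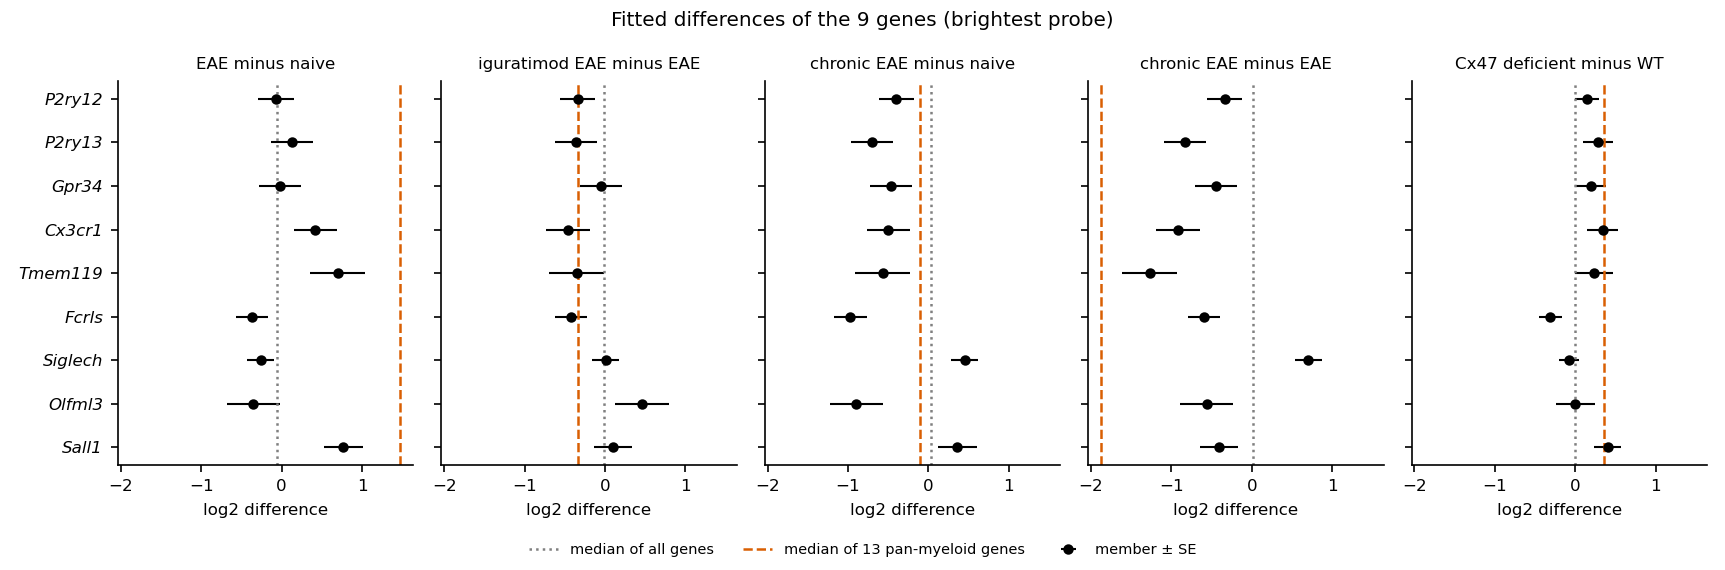
Fitted log2 difference of the 9 genes in the 5 comparisons, brightest probe, with its standard error (bars) from limma over 8 arrays. The dotted line is the median of all 25884 genes and the dashed line the median of 13 pan-myeloid genes, which lies at 1.47 in EAE minus naive, above all 9 genes, and at -1.87 in chronic EAE minus EAE, below all 9.

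Iguratimod was compared with untreated EAE to ask what the drug changed. By limma 0 of the 9 genes were called and 0 had an unadjusted p under 0.05, while 0.0% of all genes were called and 2.11% had an unadjusted p under 0.05. The median difference was -0.34 (all genes, -0.01), from -0.46 for Cx3cr1 (SE 0.27) to 0.46 for the brightest Olfml3 probe (SE 0.33). With the third Siglech probe (-0.35) and the second Olfml3 probe (-0.41) the median was -0.35, with 8 of 9 below 0. The 2 pairs of arrays gave different values, and the difference between the pairs was not tested. In WT the iguratimod array minus the EAE array was -0.88 for Tmem119, -0.88 for Cx3cr1, -0.69 for Fcrls, -0.67 for P2ry13 and -0.53 for P2ry12, with a median over the 9 of -0.53. In the Cx47-deficient pair the same genes were at 0.17, -0.04, -0.15, -0.05 and -0.15, with a median of -0.03. Without the WT iguratimod array the fitted median over both genotypes was 0.02. Each of these differences rests on 1 array a side and has no replicate check. The pan-myeloid median, -0.33, and that of the other microglia-enriched genes, -0.32, were close to that of the 9 genes.

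Within the iguratimod condition the Cx47-deficient array was above the WT array for 6 of the 9 genes, by 1.06 for Tmem119, 0.94 for Cx3cr1, 0.89 for Sall1, 0.85 for P2ry13, 0.73 for Gpr34 and 0.53 for P2ry12. Fcrls (-0.09) and the brightest probes of Siglech (-0.01) and Olfml3 (-0.66) were not above. Other probes of Siglech and Olfml3 differed from these. The third Siglech probe was at -2.10 in WT and -1.56 in the Cx47-deficient array, but the second was at 3.58 and 2.92. The second Olfml3 probe was at -2.67 and -1.92, and the third at -4.12 and -3.82. Of 23058 genes compared between these arrays 2.60% were 2-fold or more higher, as was 1 of the 9. In the naive, EAE and chronic pairs the medians of the 9 genes were 0.01, 0.10 and -0.05.

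Over all 4 conditions, 0 of the 9 genes were called between the genotypes by limma (0.0% of all genes), and 0 had an unadjusted p under 0.05 (4.42% of all genes). The median difference, Cx47 deficient minus WT, was 0.19 (all genes, 0.00), with 7 of 9 above 0. With the third Siglech probe (0.01) and the second Olfml3 probe (0.11) the median was again 0.19, with 8 of 9 above 0. Cx3cr1 at 0.34 (SE 0.19) and Sall1 at 0.40 (SE 0.17) were higher in the Cx47-deficient array in 4 of 4 pairs (4.78% of all genes), and Fcrls at -0.31 (SE 0.14) was lower in 4 of 4 (5.60% of all genes). Without the WT iguratimod array, and likewise without the Cx47-deficient 1, the median was 0.01. The lists beside them lay in the same range, with medians of 0.29 for the other microglia-enriched genes, 0.34 for the disease-associated genes and 0.36 for the pan-myeloid genes, and 0 calls by limma in each.

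In chronic EAE against naive, 7 of the 9 genes had differences below 0 and 0 of the 9 were called by limma (0.947% of all genes). For 7 of the 9 genes both chronic arrays were below both naive arrays (31.2% of all genes), and for Siglech and Sall1 both were above (35.4% of all genes). The median difference was -0.50 (all genes, 0.03). Fcrls differed by -0.97 (SE 0.20, limma adjusted p = 0.0719), Olfml3 by -0.90 (SE 0.33), P2ry13 by -0.70 (SE 0.26), Tmem119 by -0.57 (SE 0.34), Cx3cr1 by -0.50 (SE 0.27), Gpr34 by -0.47 (SE 0.26) and P2ry12 by -0.40 (SE 0.22). Sall1 was at 0.36 (SE 0.24) and Siglech at 0.45 (SE 0.17). By limma 4 of the 9 had an unadjusted p under 0.05 (32.6% of all genes). The Siglech value turned to -0.90 with the third probe and -0.73 with the second, and Olfml3 was at -0.63 with the second and 0.82 with the third of its probes. With the third Siglech and second Olfml3 probes 8 genes had chronic arrays below naive arrays, and Sall1 alone had them above.

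The 27 other microglia-enriched genes had a median of -0.47 in this comparison, with 25 below 0 and 0 called by limma. Pan-myeloid genes had a median of -0.11 and monocyte and macrophage genes one of 0.84, with 14 of 14 above 0. Of the 9 homeostatic genes 7 were below the pan-myeloid median. The oligodendrocyte markers had a median of -2.07 with 9 of 10 below 0 and 2 called lower, among them Mog at -2.24 (SE 0.26, limma adjusted p = 0.0461), and the astrocyte markers one of -0.80 with 13 of 13 below 0 and 0 called. The part of these cells in the levels of the 9 genes was not tested.

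Against EAE the chronic arrays were lower for 8 of the 9 genes without overlap (36.2% of all genes), and higher for Siglech (38.9% of all genes). The chronic comparisons share the same chronic arrays, and this 1 shares the EAE arrays with the comparison of EAE and naive. Tmem119 had the largest difference, -1.27 (SE 0.34, 2.41-fold, limma adjusted p = 0.0609), followed by Cx3cr1 at -0.92 (SE 0.27), P2ry13 at -0.83 (SE 0.26), Fcrls at -0.60 (SE 0.20), Olfml3 at -0.56 (SE 0.33), Gpr34 at -0.45 (SE 0.26), Sall1 at -0.41 (SE 0.24) and P2ry12 at -0.34 (SE 0.22). Siglech was at 0.70 (SE 0.17, limma adjusted p = 0.0525). The median was -0.56 (all genes, 0.02), 0 of the 9 were called by limma (14.5% of all genes), and 5 had an unadjusted p under 0.05 (41.2% of all genes). Calls appeared under other processing. With normexp background correction limma called Tmem119 (-1.28, adjusted p = 0.0184), Cx3cr1, P2ry13 and Fcrls lower and Siglech higher, among 7576 genes called in all. With scaling to the median it called Tmem119, Cx3cr1, P2ry13 and Fcrls lower, among 6446. In the fit of every probe the third Siglech probe was called lower (-1.58, limma adjusted p = 0.0367). With that probe and the second Olfml3 probe (-1.21), all 9 genes were lower without overlap, and the median was -0.83.

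The lists of genes shared with other myeloid cells had lower medians in this comparison than the homeostatic genes, with no test between lists and with some genes called higher. Limma called 12 of the 27 other microglia-enriched genes lower and none higher (9.07% of all genes were called higher and 5.44% lower), with a median of -1.10. Among those called were the complement genes C1qb at -2.58 (SE 0.32) and C1qa at -2.28 (SE 0.36), Ctss at -2.02 (SE 0.28) and the purinergic receptor P2ry6 at -1.68 (SE 0.33). Of 13 pan-myeloid genes 7 were called lower, with Fcer1g at -2.26 (SE 0.32), and 2 higher, Ptprc (2.07, SE 0.40) and Itgam (0.71, SE 0.16). The median was -1.87, and 0 of the 9 homeostatic genes were below it. The disease-associated genes had 12 called lower, with Clec7a at -3.21 (SE 0.30), and Lpl called higher (2.20, SE 0.49). Among the regulators 6 of 21 were called lower, with Irf8 at -2.16 (SE 0.34) and Tgfb1 at -1.71 (SE 0.37). Spi1, called as well, was not well above background on either chronic array and was at least 2.9-fold lower there (limma adjusted p = 0.0386). Among the ligands and partners, whose median was -0.48, 6 of 17 were called lower, with Tyrobp at -2.08 (SE 0.33) and Entpd1 at -1.43 (SE 0.31). The lists overlap, with Entpd1, P2ry6, Tyrobp and Trem2 each in more than 1 of them, so their counts are not independent. Of 14 monocyte and macrophage genes 6 were called lower. Of the astrocyte markers 3 were called lower, with Gfap at -2.70 (SE 0.22). Of the oligodendrocyte markers 3 were called lower, with Mbp at -1.96 (SE 0.32), and 1 higher, Ermn (2.30-fold, limma adjusted p = 0.0414). The part of other cell types in the levels of the 9 genes was not tested.

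**Figure D4:**
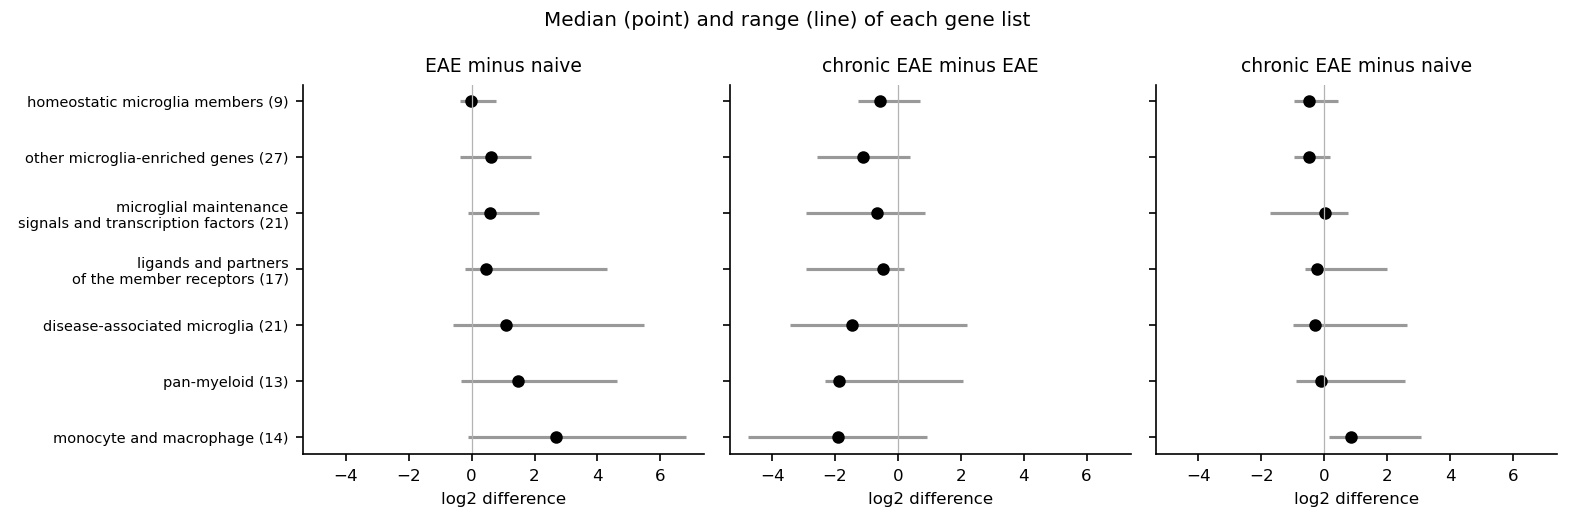
Median (point) and lowest to highest value (line) of the fitted log2 difference over the measured genes of each list, with their number in parentheses, in 3 comparisons that share arrays. The 9 homeostatic genes have medians of -0.02, -0.56 and -0.50, nearer to 0 than the 27 other microglia-enriched genes in the first (0.63) and in the second (-1.10), and about level with them in the third (-0.47).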

How the data were processed

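RNA was measured on 8 Agilent single-colour arrays, 1 per group. Per the labels' protocols it was extracted with TRIzol and a column and amplified with a low-input kit. The deposited scanner files hold intensity values, per the file headers from Feature Extraction 10.7.1.1 with mm9 probe positions; the submitters' processing notes give Agilent Feature Extraction 9.5.1.1, which was not resolved. The authors' deposited value table holds intensity values, found here to have a median of 50.2 in each column, and served as an alternative only. Deposited flags of background and outliers were taken as given.

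From log2 of each spot's processed signal the array's percentile 75 over non-control spots was subtracted, with outlier spots left out and spots of a probe averaged. Probes well above background on at least 2 of 8 arrays were kept, and each of 25884 genes was represented by its brightest probe. limma 3.58.1 in R 4.3.3 fitted condition plus genotype over 8 arrays (3 residual and 2.12 prior degrees of freedom, prior SD 0.234) and was tested on simulated data: for EAE minus naive it recovered 0% of genes changed by 1 on the log2 scale, 49% of those changed by 2 and 82% of those changed by 4. Single arrays were compared without a test. The level of the targeted gene is not reported here. Named genes were all probes of the 9 members, the called genes and up to 4 largest differences in EAE of 16 other lists (a choice of these is printed), 5 genes most like the mean course and 3 most like each member. Members, lists and tests were chosen with earlier results of these data known. Alternatives were background correction, scaling, filters, probe choice, slide, genotype term and leaving out arrays. Sequences come from the probe annotation in the scanner files and RefSeq promoters (GRCm38.p6).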

Additional observations from a re-analysis of the deposited data

Results flagged for a closer look

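For 5 values the WT and the Cx47-deficient pair moved in opposite directions. Each difference between the pairs rests on 4 single arrays and was not tested. With iguratimod minus EAE, Tmem119 was at -0.88 in WT and 0.17 in the Cx47-deficient pair, a difference of 1.05. Sall1 was at -0.26 and 0.47, a difference of 0.73, Gpr34 at -0.32 and 0.22, a difference of 0.54, and Siglech at 0.04 and -0.03, a difference of -0.07. The Siglech difference between the pairs has no SE of its own. It is small beside 0.17, the SE of the fitted Siglech difference with iguratimod over both genotypes. In EAE minus naive Gpr34 was at -0.23 and 0.19, a difference of 0.42.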

How the results depend on the processing

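With 1 array per group the fit had 3 residual degrees of freedom. Simulated 2-fold changes were not recovered in EAE minus naive, and recovery in the other comparisons is not given here. Calls were scarce in EAE minus naive (0.251% of all genes) and absent with iguratimod and by genotype. They were not scarce in chronic EAE minus EAE (14.5% of all genes). In the EAE and chronic comparisons the number of calls changed with the processing. No absence of change can be read from a missing call in any comparison. The array flags set the limit of detection, and of the members' probes only the second Fcrls probe fell under it on every array. Of the other genes named, Spi1, Gpr171, Plac8, Cd3d and Cd2 fell under it on some arrays. Genotypes were paired within a condition by the condition term, and the labels give no replicate numbers for a further block. The median member difference kept its sign under normexp, quantile normalization, median scaling, the authors' values, both filters and the mean of probes in 4 comparisons, the genotype median only just (0.19 to 0.02 with median scaling), and in EAE minus naive it lay near 0 (0.02 with median scaling, 0.08 with the mean of probes). In chronic EAE minus naive it moved from -0.50 to -0.57 with normexp, -0.85 with median scaling and -0.40 with the mean of probes, and in chronic EAE minus EAE from -0.56 to -0.96 with median scaling and -0.41 with the mean of probes. Median scaling moved the median of all genes from 0.03 to -0.33, 0.02 to -0.38 and 0.00 to -0.18 in the chronic and genotype comparisons. With the other Siglech and Olfml3 probes, chosen after seeing the data, the medians were 0.42 in EAE minus naive and -0.83 in chronic EAE minus EAE. Members whose arrays did not overlap then numbered 5 higher and 0 lower in EAE, 0 higher and 2 lower with iguratimod, 1 higher in chronic EAE minus naive and 0 higher against EAE. For the iguratimod count no share over all genes is given here, so it cannot be judged against other genes. Leaving out 1 array at a time gave medians of -0.15 to 0.26 (the latter without WT naive) in EAE, -0.57 to 0.02 (the latter without WT iguratimod) with iguratimod, and -0.71 to -0.31 (without Cx47-deficient naive and without Cx47-deficient chronic) in chronic EAE minus naive.

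Members called in chronic EAE minus EAE numbered 5 with normexp, 4 with median scaling, 3 with the filter on all 8 arrays (Tmem119 and Cx3cr1 lower, Siglech higher), and 1 each with quantile normalization, the authors' values, every probe and no genotype term. That 1 was the brightest Siglech probe, higher, with quantile normalization, the authors' values (1.06 each) and no genotype term (0.70), and the third Siglech probe, lower (-1.58), in the fit of every probe. Many other genes were called under the same settings. They numbered 7576 with normexp, 6446 with median scaling, 4749 with the filter on all 8 arrays and 4270 with quantile normalization. The authors' values gave 4169, no genotype term 4223, and the fit of every probe 7530 probes. In chronic EAE minus naive, Fcrls was the 1 member called with normexp and with the filter on all 8 arrays (limma adjusted p = 0.0221 and 0.0447). All genes called there numbered 4079 and 1811. Median scaling left 0 members lower in EAE, 0 higher and 0 lower with iguratimod, 0 higher in chronic EAE minus naive, and 0 higher and 2 lower by genotype without overlap, and raised 2-fold differences between single arrays from 5 to 16. Normexp left 0 lower with iguratimod. Quantile normalization and the authors' values each left 1 higher in chronic EAE minus naive, 1 higher by genotype and 8 differences of 2-fold. For these counts under other processing no share over all genes is given here, so they cannot be judged against other genes.

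All genes called in EAE minus naive numbered 65 and, with normexp, quantile normalization, median scaling, the authors' values, no filter, the filter on all 8 arrays, every probe, slide 1 only and no genotype term, 241, 38, 340, 38, 15, 201, 28, 0 and 104, and 0 to 11 without 1 array. With slide 1 only, 1976 genes still had an unadjusted limma p under 0.05. In chronic EAE minus naive they numbered 245 and, in the same order but for slide 1, 4079, 19, 1029, 12, 25, 1811, 1127 and 907, and 1 to 3 without 1 array. In chronic EAE minus EAE the 3754 became 7576 with normexp, 6446 with median scaling, 847 with no filter and 7530 with every probe, and 1 to 2446 without 1 array. The share of these calls that was higher was 62.5%, and 46.0%, 49.0%, 42.7% and 48.9% with normexp, quantile normalization, median scaling and the authors' values. In chronic EAE minus naive it was 74.7%, and 45.9%, 57.9%, 57.4% and 41.7%.

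The sign of a single member turned as follows. With the mean of probes Olfml3 was at 0.08 in EAE and -0.08 with iguratimod, Siglech at 0.02 in EAE, -0.40 in chronic EAE minus naive and -0.41 against EAE, and Gpr34 at 0.04 with iguratimod. Quantile normalization and the authors' values gave Siglech -0.09 with iguratimod and 0.04 by genotype. Median scaling gave Gpr34 0.02 in EAE and 0.04 with iguratimod, and P2ry12 -0.04 and Olfml3 -0.17 by genotype. The dimmer Gpr34 probe gave 0.01 and 0.12. The second Siglech probe gave -0.73 in chronic EAE minus naive and -0.36 against EAE, and the third 0.68 in EAE, -0.35 with iguratimod, -0.90 and -1.58 in the chronic comparisons and 0.01 by genotype. The second Olfml3 probe gave 0.59 in EAE and -0.41 with iguratimod, and the third -0.30 with iguratimod, 0.82 and 0.83 in the chronic comparisons. On slide 1 only Olfml3 was at -0.22 by genotype. Leaving out 1 array gave ranges across 0 for Gpr34 (-0.31 to 0.26 in EAE, -0.41 to 0.31 with iguratimod), P2ry12 in EAE (-0.15 to 0.02), P2ry13 (-0.74 to 0.02), Sall1 (-0.22 to 0.43), Siglech (-0.09 to 0.10) and Tmem119 (-0.91 to 0.20) with iguratimod, and Olfml3 (-0.22 to 0.22) and Tmem119 (-0.05 to 0.36) by genotype. The cause of these turns was not tested.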
